A study of Homo sapiens with 8 samples.

Results

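EBC1 is an established human line that the labels class as lung squamous cell carcinoma, and its 2 libraries were set against the 6 libraries of the adenocarcinoma lines H23, H820 and H1975, out of 8 libraries in all. The libraries were assigned by their cell line label, and no measured value entered that choice. Every line was grown as pneumospheres, floating spheres in ultra-low attachment flasks, in DMEM-F12 without serum but with fibroblast growth factor, epithelial growth factor and the supplement B-27. Of each line, 1 library came from spheres exposed without serum to 25 µg/ml PD-L1s (soluble PD-L1, a checkpoint ligand, made synthetically) over 15 min, and 1 from untreated spheres. RNA was sequenced from stranded total RNA libraries depleted of ribosomal RNA. Each line is 1 culture model of 1 tumour, so squamous type and everything else that sets EBC1 apart cannot be told apart. No line has 2 libraries of the same condition. The p-values measure how the 2 libraries of a line differ beyond the treatment difference that all lines share, not the spread between tumours.

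MET is the cell surface receptor for hepatocyte growth factor, and EBC1 is known as a line that carries an amplified MET gene and depends on its kinase activity. Squamous tumours of the lung usually keep a programme of basal cells run by the transcription factors TP63 and SOX2, with keratins such as KRT5 and KRT14, whereas many adenocarcinomas keep NKX2-1, a transcription factor of the alveolar epithelium. Cells can make their own sterols and fatty acids, by pathways that the SREBP transcription factors raise when membranes run short of cholesterol. The medium without serum was the same for every line.

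The EBC1 libraries held 27524854 counts with PD-L1s and 5894946 without, and the 6 adenocarcinoma libraries held 5559870 to 23783679. Levels are CPM, counts relative to the library total, after TMM scaling, which corrects totals for differences in RNA composition. Across genes, the 2 EBC1 libraries correlated at a Pearson r of 0.982, against 0.858 to 0.870 with H1975, 0.823 to 0.851 with H820 and 0.781 to 0.793 with H23, as a description of these libraries. The share of counts from the mitochondrial genome was 0.972% and 1.65% in EBC1 and 2.02% to 4.07% in the adenocarcinoma libraries.

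The squamous label was checked first, and most of its defining markers were at or near 0 in EBC1. TP63, the master factor of basal cells, had 7 counts in the PD-L1s library and 1 in the untreated library of EBC1, or 0.314 and 0.192 CPM. It reached 86.7 and 87.2 CPM in H1975, against 1.26 and 1.89 in H23 and 0.372 and 0 in H820, so the libraries with the highest TP63 were those of an adenocarcinoma line. KRT5, KRT14 and the desmosomal cadherin DSG3 had 0 counts in both EBC1 libraries, KRT6A had 1 and the plakophilin PKP1 had 3. Of 10 squamous markers 9 lay under 1 CPM in both EBC1 libraries, and the exception was SERPINB5, the serpin maspin, at 54.3 and 49.0 CPM. It was above H23 (0.654 and 0.602 CPM) and H820 (0.418 and 0) and was not called against H1975 (57.7 and 58.4 CPM, adjusted p = 0.43). The summed level of the 10 markers was 55.1 and 49.6 CPM in EBC1 and 1.69 to 165 CPM in the adenocarcinoma libraries. Over the wider squamous list, 15 of 22 genes passed the expression filter, and PITX1, a homeobox factor (83.9 and 59.0 CPM in EBC1, at most 32.8 elsewhere), was the 1 higher than in every adenocarcinoma line and PERP, a desmosome-linked membrane protein, the 1 lower, a call lost without the untreated library of EBC1 and without either H1975 library. The label rests on the source of the line, and the line is called EBC1 in what follows.

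Some alveolar genes were low as well, but the alveolar markers together were not below H23. The summed level of 6 alveolar or adenocarcinoma markers was 60.6 and 46.5 CPM in EBC1. It was 49.3 and 49.2 CPM in H23, 127 and 99.6 in H820 and 141 and 147 in H1975. NKX2-1 had 0.224 and 0 CPM (5 counts in all) in EBC1, against 5.68 and 5.46 in H23, 54.03 and 35.6 in H820 and 75.2 and 78.5 in H1975, and it was lower than in every adenocarcinoma line (largest adjusted p over the 3 lines 1.27e-08). Among 15 tested genes of the alveolar and adenocarcinoma list, 4 were lower than in every line (26.7%, beside 10.4% of all genes). Those other than NKX2-1 were the phosphate transporter SLC34A2, the lamellar body protein LAMP3 and the mucin MUC1. MUC1 had 15.3 and 11.7 CPM in EBC1, against 31.4 and 23.9 in H23, 62.3 and 34.5 in H820 and 761 and 739.9 in H1975. None of the list was higher than in every line. Against the mean 4 were higher and 5 lower, beside 28.1% and 26.4% of all genes, and against H23 5 were higher and 5 lower. The lipid transporter ABCA3, at 58.1 and 44.4 CPM in EBC1 and 41.6 to 62.6 in the adenocarcinoma libraries, was called against no line. Defining markers of other cell types were at or near 0 in EBC1. The leukocyte gene PTPRC had 1 count, CD3E, COL3A1, DCN, LUM, CDH5, KDR, CHGA and NEUROD1 had 0, and the summed level was 0.404 and 0.192 CPM for 3 endothelial markers and 0.448 and 0.192 CPM for 5 neuroendocrine markers. The fibroblast list summed to 25.2 and 18.3 CPM in EBC1 over 5 markers, below the adenocarcinoma libraries (32.4 to 57.8 CPM). CD68, a lysosomal protein of macrophages that other cells also make, stood at 152 and 125 CPM in EBC1 and at 4.54 to 132 CPM in the adenocarcinoma libraries.

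Across the 24185 genes tested, with cell line and treatment as terms, 13167 differed between EBC1 and the mean of the 3 adenocarcinoma lines at a Benjamini-Hochberg adjusted p under 0.05 in edgeR's quasi-likelihood test (54.4% of the genes tested, 6791 or 28.1% higher and 6376 or 26.4% lower). Of those genes, 9892 had the same sign against every line (40.9% of the genes tested) and 3275 had the opposite sign against at least 1 line (13.5% of the genes tested). A stricter rule was therefore used throughout, by which a gene had to pass the test against H23, against H820 and against H1975, in the same direction each time. It called 2384 genes higher in EBC1 than in every adenocarcinoma line (9.86%) and 2516 lower (10.4%). Those shares are the background for every count of list members by this rule. Against single lines, 28.3% of genes were higher and 33% lower than in H23, 25.6% and 30.1% than in H820, and 24.4% and 28.2% than in H1975. The same rule turned on the other lines called 3312 genes higher and 2921 lower in H23, 2673 and 1781 in H820, and 2531 and 1588 in H1975, so H23 had more calls of its own than EBC1. Without the deeper, PD-L1s library of EBC1 the strict rule called 1555 genes higher and 1596 lower, and with scaling by total count alone 1478 and 3677. That scaling moved the median log2 difference of all genes to -0.40, against -0.08 with TMM, and the higher share of the calls against the mean to 34.9%, against 51.6%, so changes here are relative to the TMM scale.

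MET was the most abundant of the 5 genes taken as markers of the line, which were picked with earlier results of these data known. MET (ENSG00000105976.14_3, GRCh37 chr7:116312446-116438440) had 7607 CPM with PD-L1s and 6789 untreated in EBC1, against 1706 and 1177 in H820, 514 and 477 in H1975 and 63.2 and 59.9 in H23. Both EBC1 libraries lay above all 6 others. The smallest of its 3 differences was that from H820, log2 2.33 ± 0.216 (SE; adjusted p = 4.57e-08), and the largest that from H23, log2 6.87. Per kilobase of exon, MET stood at 1076 CPM in EBC1, HLA-DQB1 at 148, NOG at 127, CDH2 at 28.05 and MUC4 at 25.9.

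CDH2 encodes N-cadherin, a homophilic adhesion protein of neural and mesenchymal cells. It had 124 and 126 CPM in EBC1, against 2.62 and 2.53 in H23, 0 and 0.0873 in H1975 and 0 in both H820 libraries. NOG, a secreted protein that binds and blocks bone morphogenetic proteins, had 266 and 214 CPM in EBC1, against 3.37 and 2.45 in H23, 1.23 and 1.48 in H1975 and 0 in both H820 libraries. For both genes every EBC1 library lay far above every other library. Their smallest tested differences were from H23, at log2 5.598 ± 0.211 for CDH2 and 6.37 ± 0.202 for NOG, since a fitted value against the 0 counts of H820 depends on the prior count.

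MUC4 encodes a large membrane mucin of airway epithelium that binds ERBB2. It had 365 and 520 CPM in EBC1, against 5.43 and 4.91 in H820, 2.97 and 3.10 in H1975 and 0.101 and 0.161 in H23 (smallest difference log2 6.33 ± 0.211, H820). It was the exception in its family, for among 11 mucin genes tested it was the 1 higher than in every line, MUC1 the 1 lower, and 7 were lower than the mean. HLA-DQB1 encodes the beta chain of the class II antigen receptor HLA-DQ. It had 294 and 233 CPM in EBC1 and at most 1.56 CPM in any adenocarcinoma library (smallest difference log2 7.57 ± 0.223, H23). HLA genes are polymorphic and near-identical to each other, and the part that alignment to the reference alleles plays in their counts was not tested.

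**Figure D1:**
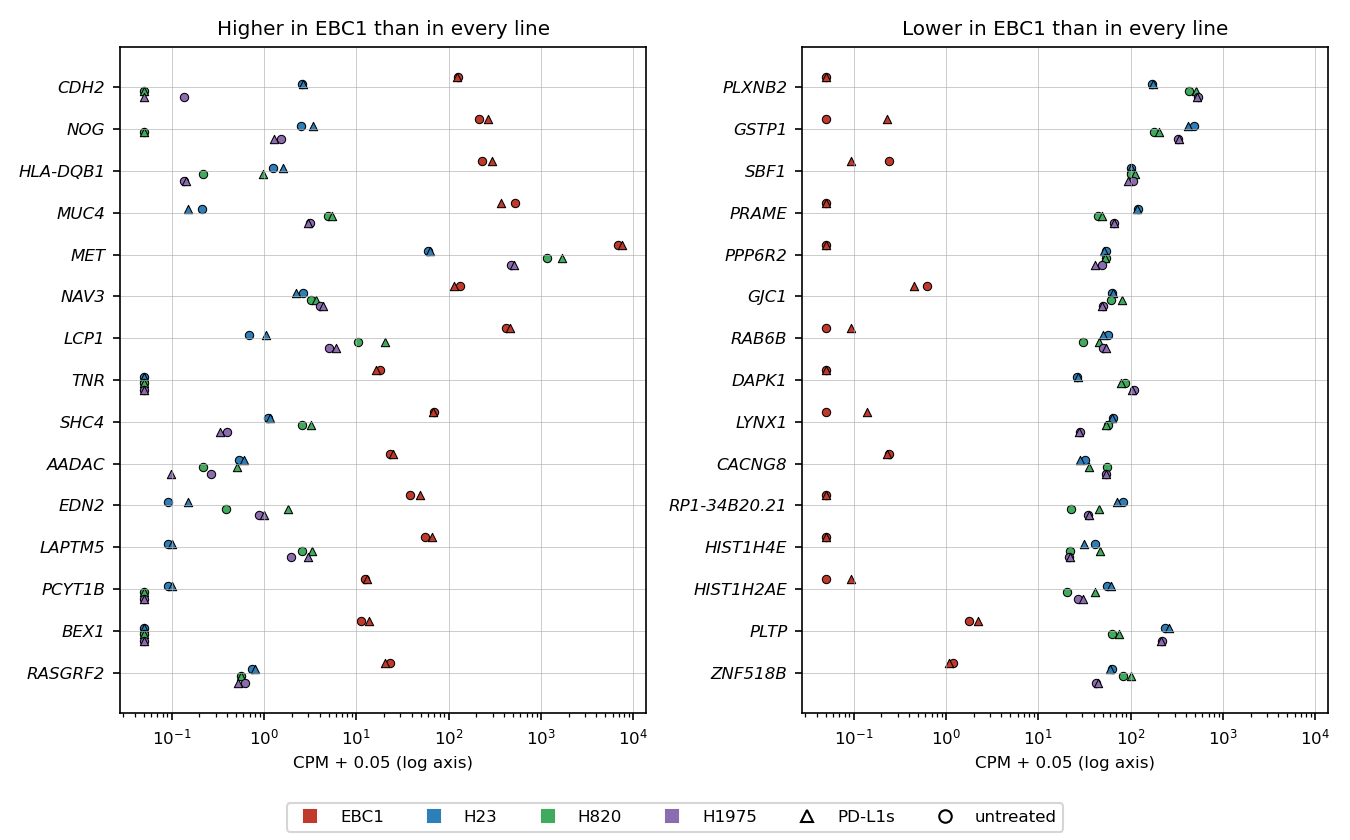
Levels of 15 genes in each panel by library, as TMM-scaled CPM plus 0.05 on a log axis; colours mark the line, triangles the PD-L1s library and circles the untreated one. In every row drawn the 2 EBC1 points lie on 1 side of all 6 adenocarcinoma points, between 11.1 and 7607 CPM on the left panel and between 0 and 2.15 CPM on the right.

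The genes with the widest gap between EBC1 and every other library had varied roles. The actin bundling protein LCP1 (L-plastin), normally a protein of blood cells, had 459 and 424 CPM, against 20.5 and 10.5 in H820, 5.94 and 5.06 in H1975 and 1.01 and 0.642 in H23. NAV3, a microtubule-binding protein of neurons, had 114 and 133 CPM in EBC1 and 2.16 to 4.29 CPM in the adenocarcinoma libraries. They were chosen for that gap, so its size is a description.

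TNR, a matrix glycoprotein of the nervous system, had 16.4 and 17.9 CPM in EBC1 and 0 counts in all 6 adenocarcinoma libraries, as did BEX1, with 13.6 and 11.1 CPM in EBC1. The adaptor SHC4 (67.1 and 68.6 CPM in EBC1, at most 3.16 elsewhere), the vasoconstrictor peptide EDN2 (49.5 and 38.4, at most 1.77), the lysosomal protein LAPTM5 of lymphoid cells (65.4 and 55.0, at most 3.25) and the Ras exchange factor RASGRF2 (20.3 and 23.1, at most 0.754) followed. AADAC, an arylacetamide deacetylase, had 24.9 and 23.1 CPM in EBC1 and at most 0.553 elsewhere, and the transcribed pseudogene RP11-64D22.2 beside it on chromosome 3 had 62.2 and 63.4, against at most 1.01. Among noncoding genes, the long intergenic RNA RP11-47I22.3 had 88.4 and 114 CPM in EBC1 and at most 3.58 elsewhere. These genes were taken from those called against every line, so that they pass is fixed by the choice, and TNR and BEX1 passed the expression filter through EBC1 alone and lost their call with DESeq2.

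Around MET the elevation was shared by its neighbours. Within 3 Mb, 13 of 16 genes passed the expression filter, and 8 of them were higher in EBC1 than in every adenocarcinoma line and none lower, beside 9.86% and 10.4% of all genes tested. The median log2 difference from the mean was 2.54 over the 13 genes and -0.08 over all genes tested. CAV1, the coat protein of caveolae, had 1931 and 1803 CPM in EBC1, against 262 and 255 in H1975, 44.6 and 18.3 in H820 and 26.1 and 27.3 in H23 (smallest difference log2 2.85 ± 0.252, H1975). Its partner CAV2 had 865 and 833 CPM in EBC1 and 15.7 to 153 CPM elsewhere. On the far side of MET, CAPZA2, an actin capping subunit, had 910 and 904 CPM in EBC1 and 82.6 to 249.5 CPM elsewhere. TES (532 and 469 CPM, at most 212 elsewhere), ST7 (110.3 and 114 CPM, at most 43.4), LSM8 (207 and 268 CPM, at most 66.2) and MDFIC (104 and 93.4 CPM, at most 61.1) complete the 8 with MET. The chloride channel gene CFTR (22 counts in EBC1) and WNT2 (6 counts) were not called in 1 direction against every line. The DNA copy number of these genes was not measured here, and RNA alone gives no value for it.

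Genes of the MET signalling axis were called in both directions. Of 18 genes on that list 6 were higher than in every line (33.3%) and 1 lower (5.56%), beside 9.86% and 10.4% of all genes. MST1R, which encodes the sister receptor RON, had 70.5 and 49.8 CPM in EBC1, against 40.7 and 46.0 in H1975, 19.6 and 16.1 in H820 and 2.82 and 1.93 in H23. Its lead over H1975 was small (log2 0.46, adjusted p = 0.033). The membrane proteases ST14 (matriptase), at 710 and 521 CPM, and PRSS8 (prostasin), at 326 and 241 CPM, activate the ligand precursor or act with it in epithelia, and both lay above the highest adenocarcinoma library (292 CPM for ST14 and 149 CPM for PRSS8). The phosphatase PTPN11 (541 and 547 CPM, at most 365 elsewhere) and the ubiquitin ligase CBL (191 and 184 CPM, at most 152 elsewhere), both of which act on activated receptors, were higher too, but the call of CBL was lost in 7 of the alternative settings. With scaling by total count alone the list held 4 higher and 4 lower genes. LRIG1, a membrane protein that promotes receptor degradation, was lower at 2.60 and 2.11 CPM, against at least 7.38 elsewhere. HGF, the MET ligand, had 0 counts in EBC1, H820 and H1975 and 75.2 and 57.4 CPM in H23.

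Among other receptor tyrosine kinases more genes were lower than higher. Of 25 tested genes for ERBB, FGF, IGF, AXL and other receptors, 2 were higher than in every line (8%) and 5 lower (20%). Over all genes tested these shares were 9.86% and 10.4%. The median log2 difference of the list from the mean was -1.07. AXL had 105 and 80.1 CPM in EBC1 and 11.9 to 29.1 elsewhere, and the ephrin receptor EPHA2 had 166 and 124 CPM against 28.6 to 39.7. The insulin receptor INSR, at 18.9 and 14.2 CPM in EBC1 and 60.04 or more elsewhere, the related IGF1R (56.2 and 47.5 CPM, at least 77.9 elsewhere) and FGFR3 (0.448 and 0.192 CPM, at least 4.95 elsewhere) were lower, as were NTRK2 and DDR2. EGFR, at 262 and 246 CPM in EBC1, overlapped H820 (272 and 222 CPM) and lay below H1975 (570 and 565 CPM).

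Sterol genes were higher along most of the pathway, the list with the largest share of higher calls among those used. The lists were written with earlier results of these data known, so this rank is a description. Of its 27 genes, all tested, 20 were higher in EBC1 than in every adenocarcinoma line (74.1%, beside 9.86% of all genes) and 1 lower, with a median log2 difference of 1.71 from H23, 2.53 from H820 and 1.59 from H1975. The genes span the pathway, from the regulator SREBF2 through the first enzymes to the last step at DHCR7. SREBF2 had 826 and 637 CPM in EBC1, against 218 and 221 in H1975, 125 and 133 in H23 and 127 and 85.2 in H820. Both EBC1 libraries lay above all 6 others.

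Squalene synthase, FDFT1, at the branch that commits to sterols, had 635 and 563 CPM in EBC1 and 33.9 to 96.6 CPM elsewhere (log2 3.17 ± 0.127 from the mean). The methyl sterol oxidase MSMO1 had 802 and 639 CPM in EBC1 and 64.2 to 120.3 CPM elsewhere, and the sterol carrier STARD4 had 285 and 265 CPM against 3.73 to 42.9 CPM. HMGCS1 (440 and 387 CPM), the first committed enzyme, SQLE (494 and 477 CPM) and DHCR7 (517 and 402 CPM) also lay above every adenocarcinoma library, whose highest values were 203, 169 and 106 CPM. The feedback gene INSIG1, which retains SREBP in the endoplasmic reticulum, had 701 and 563 CPM in EBC1 and at most 167 elsewhere. PMVK, the kinase of phosphomevalonate, was the gene lower than in every line, at 4.84 and 2.69 CPM in EBC1 and 12.7 to 31.6 CPM elsewhere.

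Fatty acid genes followed, with 11 of 17 higher than in every line (64.7%, beside 9.86% of all genes) and 1 lower. ACSS2, which makes acetyl-CoA from acetate, had 544 and 423 CPM in EBC1 and 17.1 to 69.5 CPM elsewhere. The desaturase genes FADS1 (453 and 412 CPM) and FADS2 (325 and 252 CPM) stood above 103 and 68.5 CPM, their highest adenocarcinoma values, and the stearoyl desaturase SCD had 3480 and 2973 CPM in EBC1, against 1563 and 1471 in H1975, 1287 and 1392 in H23 and 512 and 125 in H820. FASN, the fatty acid synthase, had 1484 and 952 CPM in EBC1 and at most 689 elsewhere, while ACACB, the mitochondrial acetyl-CoA carboxylase, was lower at 3.32 and 2.31 CPM against at least 6.07. With scaling by total count alone the list held 7 higher and 2 lower genes. Targets of the oxysterol receptor LXR, among them genes of cholesterol export, showed no such pattern. Of 9 tested, 1 was higher than in every line (MYLIP, by log2 0.41 over H820, a call lost in 10 settings) and none lower. The exporter ABCA1, at 41.8 and 42.3 CPM in EBC1, lay between H820 (24.2 and 26.8 CPM) and H23 (81.3 and 72.3 CPM).

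**Figure D2:**
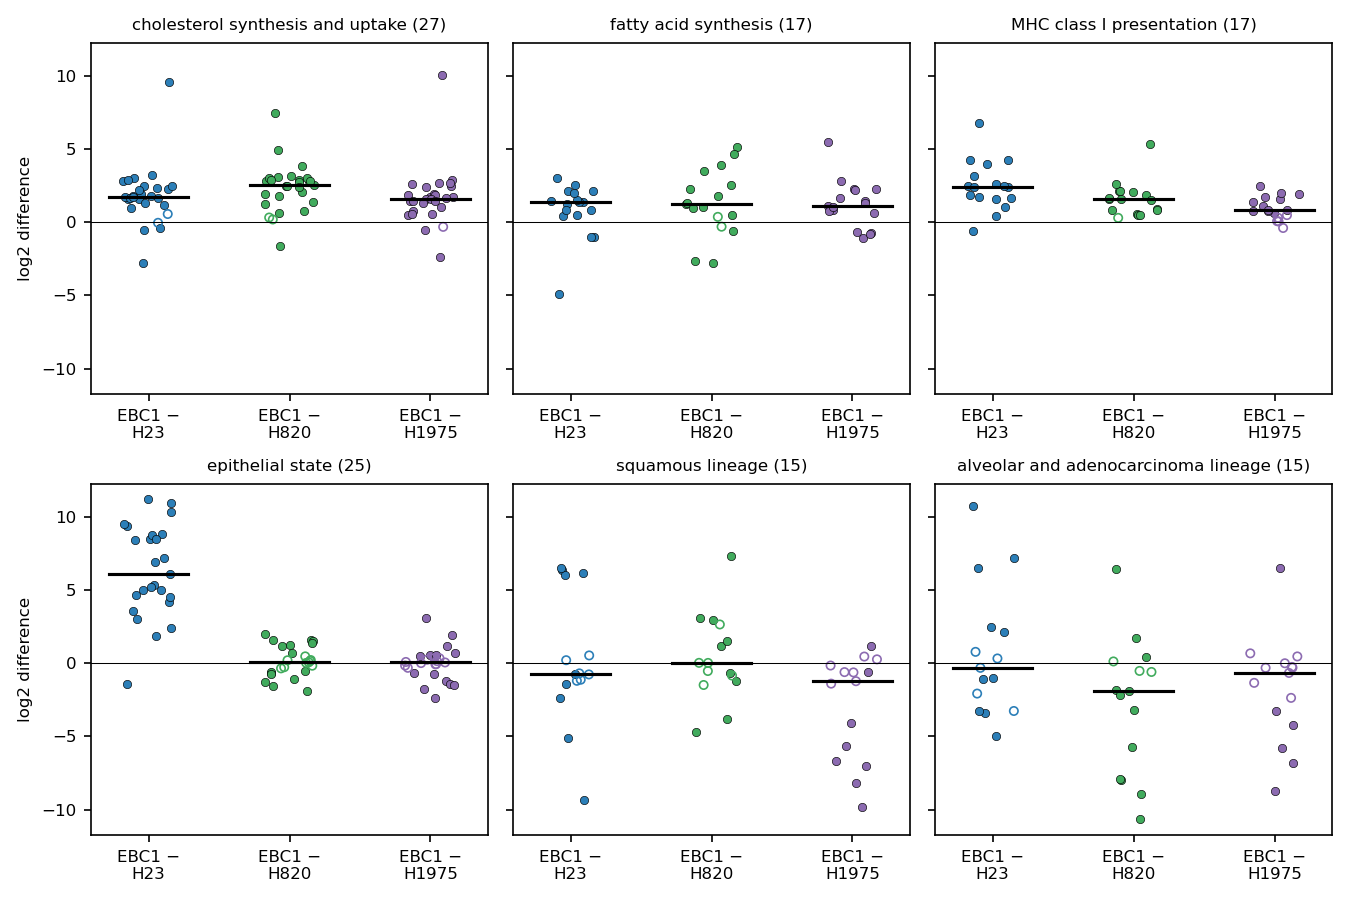
Log2 difference of EBC1 from each adenocarcinoma line for the tested members of 6 gene lists; filled points pass an adjusted p of 0.05 against that line, open points do not, and black bars are medians. Sterol, fatty acid and class I genes lie mostly above 0 against all 3 lines, with class I medians of 2.42, 1.56 and 0.79, whereas epithelial genes lie above 0 against H23 (median 6.11) but around 0 against H820 (0.05) and H1975 (0.04).

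Antigen presentation by class I was higher as a group. Of 17 genes 10 were higher in EBC1 than in every adenocarcinoma line (58.8%, beside 9.86% of all genes) and none lower. Against the mean 15 were higher, beside 28.1% of all genes. B2M, the light chain shared by all class I molecules, had 2312 and 2279 CPM in EBC1, against 933 and 645 in H820, 638 and 569 in H1975 and 153 and 148 in H23 (smallest difference log2 1.56, adjusted p = 2.00e-06). HLA-B (1437 and 1034 CPM) and HLA-C (1378 and 1025 CPM) were also higher, against at most 862 and 778 CPM, but the annotated span of HLA-B covers HLA-C and the copies are near-identical, so how their reads divide is uncertain. The trimming peptidase ERAP2, at 267 and 222 CPM in EBC1, against 65.0 and 56.1 in H1975 with no other library above 6.83, the chaperone PDIA3 (1795 and 1888 CPM, at most 362 elsewhere) and the activator NLRC5 (43.5 and 40.7 CPM, at most 25.9 elsewhere) were higher too. The peptide transporter TAP1 (57.7 and 41.7 CPM) and the immunoproteasome gene PSMB9 (22.8 and 16.7 CPM) overlapped or lay below H1975 (45.9 and 49.2 CPM for TAP1, 26.3 and 26.5 for PSMB9) and were not called against it.

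Class II genes were higher in part. Of 18 tested, 6 were higher than in every line (33.3%) and 1 lower (5.56%), beside 9.86% and 10.4% of all genes. The invariant chain CD74 had 466 and 378 CPM in EBC1, against 156 and 147 in H1975, 85.8 and 35.1 in H820 and 0 and 0.120 in H23 (smallest difference log2 1.46 ± 0.230, H1975). HLA-DRA had 83.6 and 66.1 CPM in EBC1, 20.5 and 19.6 in H1975, 26.6 and 10.5 in H820 and 0 in H23, and HLA-DRB1 had 53.2 and 35.2 CPM in EBC1 and at most 8.18 elsewhere. HLA-DRB5 and HLA-DQA1 were the others beside HLA-DQB1, but HLA-DQA1, the partner chain of HLA-DQB1, had only 1.21 and 0.769 CPM in EBC1 (31 counts) and lost its call with DESeq2, without the untreated EBC1 library and without either H1975 library. CIITA, the activator that class II genes need, had 41.6 and 41.1 CPM in EBC1, against 32.0 and 30.3 in H1975, 10.6 and 8.81 in H820 and 0.302 and 0.0803 in H23, and missed the test against H1975 (log2 0.40, adjusted p = 0.053). HLA-DPA1 overlapped H1975 and H820, and RFXANK, a subunit of the factor that recruits CIITA, was lower (5.74 and 6.92 CPM, at least 7.79 elsewhere).

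Of 29 genes that interferon induces, 25 were lower than in H1975 and 3 higher (median log2 -2.01). Against H23 5 were lower and 18 higher (median 1.38), and against H820 13 were lower and 12 higher. Over all genes 28.2% were lower and 24.4% higher than in H1975. Those shares were 33% and 28.3% against H23 and 30.1% and 25.6% against H820. By the strict rule 3 were higher than in every line (IRF1, GBP2 and MB21D1) and 5 lower, among them STAT2, MX1, IFI6 and ISG20, with 1 higher and 4 lower without the PD-L1s library of EBC1. With all libraries the strict rule gave 10.3% higher, near the 9.86% of all genes, and 17.2% lower, beside 10.4%. GBP2 had 108 and 98.6 CPM in EBC1, against 76.4 and 30.99 in H820, 55.3 and 48.8 in H1975 and 0.302 and 0.482 in H23. IFI6, a mitochondrial protein that interferon induces, had 6.68 and 4.42 CPM in EBC1, against 208 and 199.8 in H1975, 21.8 and 25.7 in H23 and 18.8 and 19.7 in H820. Among 14 checkpoint ligands, CD47, the signal that restrains phagocytes (294 and 316 CPM, at most 245 elsewhere), and the natural killer ligand NCR3LG1 (22.2 and 21.1 CPM, at most 8.63 elsewhere) were higher, and HHLA2 was called lower. That is 14.3% higher and 7.14% lower, beside 9.86% and 10.4% of all genes. HHLA2 had 0 counts in EBC1, 0.251 and 0.0401 CPM in H23, 0.236 and 0.0873 in H1975 and 169 and 61.3 in H820, so only the gap from H820 was wide, and its call was lost in 6 settings, DESeq2 among them. The call of CD47 was lost without the untreated library of EBC1 or of H820 and without either H1975 library. CD274, the gene of PD-L1, had 12.8 and 12.7 CPM in EBC1, close to H1975 (11.8 and 9.30 CPM, adjusted p = 0.39), below H820 (45.3 and 24.4 CPM) and above H23 (0.101 and 0.201 CPM).

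Promoter sequences of 4 of these genes are shown because class I, class II and sterol genes are known to share a CCAAT-type element that binds NF-Y, the factor on which CIITA and SREBP rely. They are the 200 bases before the start in RefSeq's GRCh38.p14 annotation, a build other than the GRCh37 of the counts, written 5′ to 3′ on the strand of the gene. Capitals mark CTGATTGG, the letters of the class II Y box with 3 bases ahead of a reversed CCAAT, on either strand, and in HMGCS1 they mark CCAAT on either strand.
HLA-DQB1, chr6:32666658-32666857, minus strand: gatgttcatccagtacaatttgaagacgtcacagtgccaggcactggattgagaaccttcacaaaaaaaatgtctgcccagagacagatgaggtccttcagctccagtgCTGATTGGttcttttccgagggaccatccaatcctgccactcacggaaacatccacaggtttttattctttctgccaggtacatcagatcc
HLA-B, chr6:31357180-31357379, minus strand: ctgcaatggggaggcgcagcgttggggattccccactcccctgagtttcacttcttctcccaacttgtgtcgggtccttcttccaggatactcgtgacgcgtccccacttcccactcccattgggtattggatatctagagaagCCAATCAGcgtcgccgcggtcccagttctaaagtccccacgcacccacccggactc
B2M, chr15:44711317-44711516, plus strand: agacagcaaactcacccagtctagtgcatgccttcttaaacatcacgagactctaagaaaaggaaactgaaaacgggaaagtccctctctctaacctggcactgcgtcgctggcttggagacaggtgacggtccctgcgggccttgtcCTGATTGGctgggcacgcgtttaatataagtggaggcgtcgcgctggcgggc
HMGCS1, chr5:43313413-43313612, minus strand: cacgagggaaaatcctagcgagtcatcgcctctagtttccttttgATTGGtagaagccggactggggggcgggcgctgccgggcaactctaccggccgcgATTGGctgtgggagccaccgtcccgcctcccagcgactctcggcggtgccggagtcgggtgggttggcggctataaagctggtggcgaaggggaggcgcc
The match began 91 bases before the start in HLA-DQB1, 56 in HLA-B and 52 in B2M, and in HMGCS1 at 155 and at 100 bases. Searched from 250 bases before to 50 after the start, CTGATTGG occurred in 1136 of 27305 promoters of the table (4.16%) and in 7 of the 17 class II genes with a promoter in the table (41.2%). CCAAT, whose reverse is part of CTGATTGG, occurred in 35.7% of all promoters and in 14 of the 17. Class I and sterol genes had a promoter for under 80% of their members, so their shares are not given. The class II genes with CTGATTGG were HLA-DQB1, HLA-DQB2, HLA-DQA2, HLA-DRB1, HLA-DRB5, HLA-DMA and RFX5, of which HLA-DQB1, HLA-DRB1 and HLA-DRB5 were higher than in every line. CTGATTGG was chosen as the letters of the class II Y box. Its larger share in class II genes follows from that choice and says nothing about EBC1. A match describes letters and not binding.

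Several genes abundant in all 3 adenocarcinoma lines had no reads in EBC1. PLXNB2 (GRCh37 chr22:50713408-50746056), a receptor for class 4 semaphorins that MET can associate with, had 0 counts in both EBC1 libraries, against 526 and 536 CPM in H1975, 511 and 431 in H820 and 174 and 172 in H23. A floor of 3 counts over the EBC1 pair puts it at least 1587-fold lower than in H23, the lowest line, a bound that covers counting error only. GSTP1 (GRCh37 chr11:67351066-67354127), a glutathione transferase abundant in most lung tumours, had 4 counts, or 0.179 and 0 CPM, against 180 to 488 CPM elsewhere (log2 -10.99 ± 0.334 from the mean). DAPK1, a kinase that promotes cell death, had 0 counts in EBC1 and 26.5 to 109 CPM elsewhere, at least 244-fold lower than in H23. The melanoma antigen PRAME and the receptor IL17RA also had 0 counts, at least 427-fold and 159-fold lower than in their lowest lines.

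Other genes near 0 were the phosphatase subunit PPP6R2 (0 counts, at least 413-fold lower), the myotubularin-like SBF1 (2 counts, against 94.8 to 112 CPM elsewhere), the neuronal GTPase RAB6B (1 count), LYNX1 (2 counts), CACNG8 (5 counts) and the connexin GJC1 (0.403 and 0.576 CPM, at least 48.6 elsewhere). The phospholipid transfer protein PLTP, at 2.15 and 1.73 CPM in EBC1 and 62.7 to 262 CPM elsewhere, and ZNF518B, at 1.03 and 1.15 CPM against 41.8 to 102 CPM, were low without being absent. The pseudogene ALOX12P2 had 0 counts in EBC1 and 15.8 to 57.6 CPM elsewhere.

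The promoter of GSTP1 is shown because methylation of its CG pairs is known to silence the gene in other tumours. Capitals mark each CG pair in the 200 bases before the start, from the same RefSeq table.
GSTP1, chr11:67583612-67583811, plus strand: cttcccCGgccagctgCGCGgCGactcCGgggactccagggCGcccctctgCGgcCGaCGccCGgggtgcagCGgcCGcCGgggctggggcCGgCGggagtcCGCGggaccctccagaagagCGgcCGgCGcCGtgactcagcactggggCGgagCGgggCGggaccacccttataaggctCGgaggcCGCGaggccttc
It held 27 CG pairs, beside a median of 9 over all promoters of the table, and methylation was not measured here.

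Several lost genes lay side by side. By a rule set after the values were seen (under 0.5 CPM in both libraries of a line and at least 5 CPM in every library of the other lines), 66 of 9830 genes were near silent in EBC1 alone (0.671%), against 82 of 9776 in H23, 30 of 9517 in H1975 and 4 of 9567 in H820. In EBC1, 20 of the 66 lay in 4 runs of neighbours, the longest of 8 genes. H23 had 14 genes in 6 runs of at most 3, and H820 and H1975 had none. Near the end of chromosome 22, MAPK12, MAPK11, PLXNB2, DENND6B, PPP6R2, SBF1 and ADM2 formed a run of 7 over 233.5 kb (GRCh37 chr22:50691332-50924869) with 0, 0, 0, 2 and 10 counts for MAPK11, DENND6B, PPP6R2, SBF1 and ADM2 and 2 for MAPK12. MAPK12 and MAPK11 encode p38 kinases. On either side neither neighbour was called, for HDAC10 had 23.9 and 18.4 CPM in EBC1 and 15.3 to 38.6 elsewhere, and LMF2 had 47.7 and 26.3 CPM in EBC1 and 26.9 to 38.0 elsewhere. Within 1 Mb of PLXNB2, 11 of 34 tested genes were lower than in every line (32.35%, beside 10.4% of all genes) and 1 was higher. That window is centred on PLXNB2 and holds the 7 genes of the run. Its share therefore repeats in part how the run was chosen and is no result about the genes beyond it.

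The other long run lay in the large histone cluster on chromosome 6, whose genes supply core histones in S phase. A run of 8 genes over 38.7 kb (GRCh37 chr6:26188993-26227701), HIST1H4D, RP1-34B20.21, HIST1H3D, HIST1H2AD, HIST1H4E, HIST1H2BG, HIST1H2AE and HIST1H3E, had 0 or 1 count each in EBC1, and HIST1H3F, HIST1H2BH and HIST1H3G, a further 21.6 kb (GRCh37 chr6:26250423-26272043), likewise. HIST1H4E had 0 counts in EBC1, against 46.6 and 22.0 CPM in H820, 31.2 and 40.7 in H23 and 21.8 and 21.4 in H1975. Between the runs HIST1H1D kept 5.07 and 5.38 CPM in EBC1, while HIST1H4F had 0 counts (4.74 to 75.1 CPM elsewhere). Next to the second run HIST1H2BI also had 0 counts in EBC1 (2.37 to 30.1 CPM elsewhere), and both genes missed only the rule's minimum of 5 CPM in the other lines. Beyond them HIST1H4H, at 44.8 and 32.5 CPM in EBC1, lay above its range elsewhere of 15.8 to 31.3 CPM. HIST1H3C, in the same cluster, was the reverse, with 80.2 and 62.3 CPM in EBC1, 17.4 and 13.2 in H1975, 0.0929 and 0.339 in H820 and 0 in H23. Over the clustered histone genes 6 of 61 were higher than in every line and 15 lower, and the higher count was 2 with scaling by total count alone, 3 without the PD-L1s library of H23 and 11 and 10 without the PD-L1s and the untreated library of H820. With all libraries 9.84% were higher and 24.6% lower, beside 9.86% and 10.4% of all genes. The lower calls include genes of the runs above, such as HIST1H4E and HIST1H2AE. Against the mean 32 of the 61 were higher and 18 lower (median log2 0.60), beside 28.1% and 26.4% of all genes. Copies of a histone are near-identical, so single levels are uncertain, and the part of copy assignment was not tested. On the same strand the span of RP1-34B20.21 covers HIST1H3D and HIST1H2AD, so these genes of the run can share reads. Whether these stretches of DNA are present in EBC1 was not measured.

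Of 25 epithelial genes 24 were higher in EBC1 than in H23 and 1 lower, beside 28.3% and 33% of all genes. Against H820 8 were higher and 8 lower, beside 25.6% and 30.1% of all genes. Against H1975 7 were higher and 7 lower, beside 24.4% and 28.2%. CDH1, the gene of E-cadherin, had 1285 and 1132 CPM in EBC1, against 860 and 844 in H1975, 498 and 332 in H820 and only 1.66 and 2.01 in H23. It was higher than in every line, but by log2 0.50 over H1975 (adjusted p = 0.035), and that call was lost without either H1975 library, without either EBC1 library, without the untreated H23 library or with no count filter. EBC1 thus held E-cadherin and N-cadherin transcripts together. Of the 25 genes, 23 were higher than the mean of the lines (28.1% of all genes were), but CDH1 and ST14 alone were higher than every line, and CLDN3 was lower. Without the PD-L1s library of H820 5 were higher and none lower, without the untreated library of H820 or of EBC1 3 were higher, and without the untreated H23, the PD-L1s EBC1 or either H1975 library 1 was. Among 14 tested keratin genes none was called in either direction against every line. Against the mean 8 were higher and 2 lower, beside 28.1% and 26.4% of all genes. The direction differed by line, with 8 higher and none lower against H23, 6 higher and 3 lower against H820, and none higher and 6 lower against H1975. KRT7 had 572 and 380 CPM in EBC1, close to H1975 (586 and 568 CPM) and above H820 (172 and 116 CPM) and H23 (0.352 and 0.201 CPM).

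The cadherin list of 13 tested genes held 5 higher (38.5%) and 1 lower (7.69%) than in every line, beside 9.86% and 10.4% of all genes. With CDH1 and CDH2 came CDH4 (10.6 and 8.84 CPM in EBC1, at most 2.21 elsewhere) and the catenins CTNND1 (885 and 841 CPM, at most 431 elsewhere) and CTNNA1 (579 and 541 CPM, at most 393 elsewhere), and CDH15 was lower. The higher count was 3 without the PD-L1s library of EBC1 or without either H1975 library. The mesenchymal filament VIM had 299 and 255 CPM in EBC1, below H1975 (446 and 442 CPM) and H23 (822 and 904 CPM) and above H820 (2.28 and 1.69 CPM). Of 24 mesenchymal genes 4 were higher than in every line and 4 lower, 16.7% each, beside 9.86% and 10.4% of all genes (8 lower with scaling by total count alone). MSN, the actin linker moesin, was higher at 854 and 759 CPM (at most 536 elsewhere), and the secreted FSTL1 was lower at 5.38 and 4.61 CPM (at least 27.4 elsewhere).

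Of 11 laminins, proteins of the basement membrane, 4 were higher in EBC1 than in every line (36.4%, beside 9.86% of all genes), none was lower and 7 were not called. Over the 11 the median log2 difference from the mean was 0.15. LAMA3, an alpha chain of epithelial laminin, had 475 and 468 CPM in EBC1, against 307 and 215 in H820, 127 and 128 in H1975 and 15.6 and 12.9 in H23, with no overlap. LAMB1 had 814 and 712 CPM against at most 281. LAMA4 was low but higher than elsewhere (10.1 and 10.2 CPM, at most 3.58). Of 39 collagen genes 5 were lower than in every line (12.8%, near the 10.4% of all genes), among them COL6A2 (2.56 and 3.07 CPM, at least 71.0 elsewhere), and 2 were higher, but without the PD-L1s library of EBC1 3 were lower and with scaling by total count alone 8. The membrane protease MMP14 (672 and 542 CPM, at most 279 elsewhere) and the claudin CLDN1 (146 and 136 CPM, at most 25.9 elsewhere) were the 1 higher gene of their families of 14 and 13 tested. Among 9 clade B serpins 3 (SERPINB1, SERPINB8 and SERPINB9) were higher than every line (33.3%, beside 9.86% of all genes), SERPINB9 with a call lost in 7 settings. All 9 were higher than the mean, beside 28.1% of all genes. Against H1975, however, 4 were higher and 2 lower. The median log2 difference was 0.12 from H1975, 2.97 from H820 and 5.945 from H23.

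In the BMP list of 28 tested genes, 4 were higher than in every line (14.3%) and 5 lower (17.9%), beside 9.86% and 10.4% of all genes, and 19 were not called. Beside the antagonist NOG, the ligand BMP4 (31.4 and 26.7 CPM in EBC1, at most 3.34 elsewhere), the receptor BMPR1B (39.7 and 43.6 CPM, at most 10.4 elsewhere) and GDF15 (261 and 171 CPM, at most 112 elsewhere) were higher. The receptors BMPR1A and BMPR2 (60.1 and 58.8 CPM, at least 141 elsewhere) and the pseudoreceptor BAMBI were lower. The target ID2 (1.97 and 0.769 CPM, at least 4.46 elsewhere) was lower too, and the ligand BMP7 had 0 counts in EBC1. Of the TGF-β and activin list 20% was higher than in every line and 25% lower. In the TGF-β and activin list of 20 genes, TGFB2, TGFBR2 (179.8 and 149.7 CPM, at most 76.9 elsewhere), THBS1 (409 and 337 CPM, at most 136 elsewhere) and SMAD3 (857 and 776 CPM, at most 370.1 elsewhere) were higher and 5 were lower, INHBB, SKIL, LTBP2, SMAD2 and SMAD4 (3 lower without the PD-L1s library of EBC1).

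Of 11 plexin and neuropilin genes 3 were higher than in every line (27.3%, beside 9.86% of all genes) and PLXNB2 was the 1 lower. Against H1975 alone 4 were higher and 5 lower, beside 24.4% and 28.2% of all genes. The 3 were PLXNA4 (21.6 and 15.9 CPM in EBC1, at most 2.22 elsewhere), PLXNA1 and the co-receptor NRP1 (211 and 207 CPM, at most 131 elsewhere). The calls of NRP1 and PLXNA1 were lost without the PD-L1s library of H1975, and that of PLXNA1 also without the PD-L1s library of EBC1. Of the class 4 semaphorins, ligands of B plexins, SEMA4G (0.672 and 0.576 CPM, at least 16.3 elsewhere) and SEMA4F were lower and none of 6 was higher. Wnt antagonists DKK1 (45.3 and 34.0 CPM in EBC1, at most 5.48 elsewhere) and SFRP1 (19.4 and 16.5 CPM, at most 7.34 elsewhere) were higher with the ligand WNT7A, and NKD2, WNT5A, WNT10A, FZD2 and FZD7 were lower, among 20 tested (3 lower without the PD-L1s library of EBC1). With all libraries 15% of the Wnt genes tested were higher and 25% lower, beside 9.86% and 10.4% of all genes. In the endothelin system EDN2 and ECE1, the enzyme that activates endothelins (553 and 429 CPM, at most 239 elsewhere), were higher. The receptor EDNRA, at 4 counts, was lower.

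Among cell cycle genes, inhibitors and a G1 kinase were higher together. CDKN1C, which encodes p57, had 114 and 85.1 CPM in EBC1 and 3.05 to 8.78 CPM elsewhere, and CDKN1B, which encodes p27, had 241 and 214 CPM against 31.2 to 60.2 CPM. CDK6, the G1 kinase, had 588 and 568 CPM in EBC1, against 209 and 158 in H820, 163 and 168 in H1975 and 8.398 and 7.11 in H23. The inhibitor CDKN2A was lower (6.95 and 4.99 CPM, at least 14.6 elsewhere). Of the 19 genes of this list 5 were higher than in every line (26.3%) and 2 lower (10.5%), beside 9.86% and 10.4% of all genes. The higher count was 3 without the PD-L1s library of H23 or with scaling by total count alone, and 8 without either H820 library. Of 27 proliferation genes, 5 (PCNA, MCM3, MCM6, MCM7 and CCNB2) were higher than in every line (18.5%, beside 9.86% of all genes) and none lower. The calls of MCM3 and CCNB2 were lost in 9 and 7 settings. The higher count was 1 with scaling by total count alone or without the PD-L1s library of H23. It was 3 with DESeq2 or without the PD-L1s library of EBC1, and 8 without either H820 library.

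Among 28 genes of lung cancer drivers and suppressors none was higher than in every line and 4 were lower (14.3%, beside 10.4% of all genes). With scaling by total count alone 9 were lower. NFE2L2, the gene of the oxidative stress factor NRF2, was among the lower genes (72.3 and 70.1 CPM, at least 138 elsewhere), with ATM and NKX2-1. Among 23 NRF2 targets 7 were higher than in every line (4 without the PD-L1s library of EBC1) and none lower, such as the cystine carrier SLC7A11 (232 and 257 CPM, at most 168 elsewhere) and the aldo-keto reductase AKR1C3 (48.8 and 40.0 CPM, at most 14.7 elsewhere). With all libraries 30.4% of the NRF2 targets were higher than in every line. Of 23 death regulators 2 were higher than in every line (8.7%) and 3 lower (13%), near the 9.86% and 10.4% of all genes. BCL2, which blocks apoptosis (3.86 and 4.03 CPM, at most 0.704 elsewhere), and its opponent PMAIP1 (88.5 and 82.2 CPM, at most 57.9 elsewhere) were higher. CFLAR, an inhibitor of caspase-8 (53.1 and 58.6 CPM, at least 124 elsewhere), DAPK1 and MCL1 were lower. The call of MCL1 was lost in 9 settings, among them 7 of the 8 that leave out 1 library.

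Of 23 glycolytic and hypoxia genes 8 were higher than in every line (34.8%, beside 9.86% of all genes) and none lower. Against the mean 20 were higher, beside 28.1% of all genes. ENO2 had 1098 and 906 CPM in EBC1, against 262 and 258 in H1975, 131 and 68.4 in H820 and 47.2 and 50.2 in H23. ALDOA, the muscle-type aldolase, had 6412 and 4850 CPM in EBC1 and at most 2765 elsewhere, and ALDOC had 743 and 599.8 CPM against at most 172. The hypoxia genes ADM (413 and 358 CPM, at most 137 elsewhere) and ANKRD37 (256 and 252 CPM, at most 86.5 elsewhere) varied between the H820 libraries themselves, at 137 and 16.4 CPM for ADM. With the PD-L1s library of H820 left out 13 of the list were called higher than every line, and with the PD-L1s library of H1975 left out 5. Genes of the mitochondrial genome were lower, 5 of 13 against every line (38.5%, beside 10.4% of all genes) and 11 of 13 against the mean (26.4% of all genes were). The part of the lower mitochondrial share given above was not tested. Without the PD-L1s library of EBC1, H1975 or H23 the first count was 1, 2 or 3, without the PD-L1s or the untreated library of H820 10 or 9, and with scaling by total count alone 11.

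**Figure D3:**
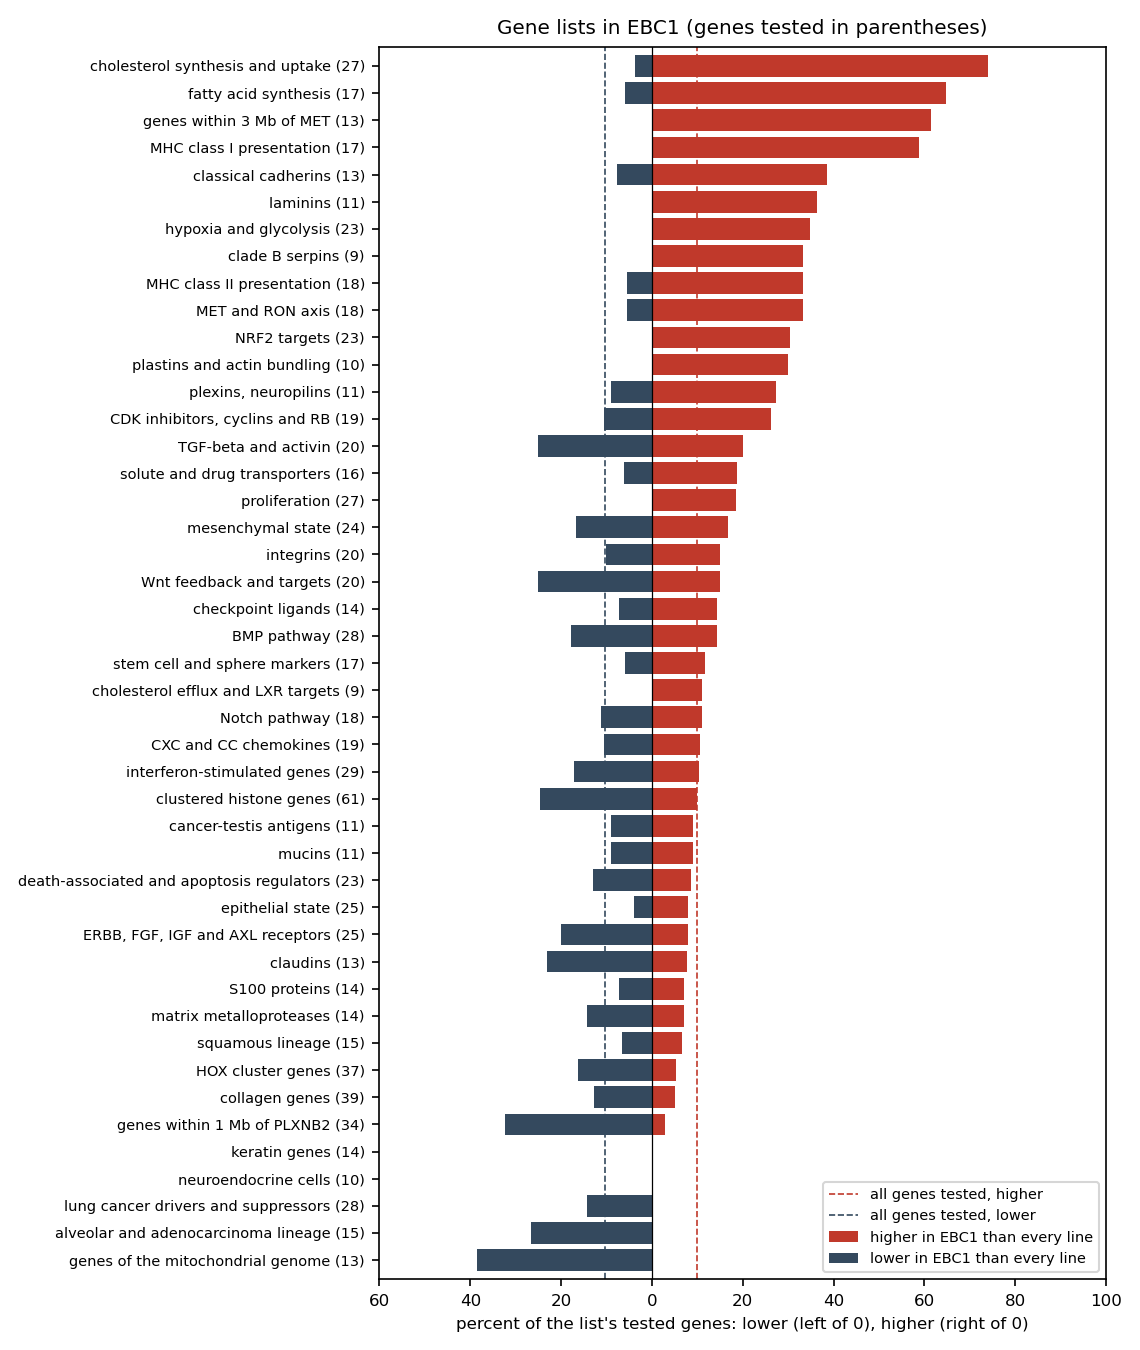
Percent of the tested genes of each list that were higher (right, red) or lower (left, dark) in EBC1 than in every adenocarcinoma line; numbers in parentheses are the genes tested and dashed lines mark 9.86% and 10.4%, the shares over all genes tested. Sterol genes reach 74.1%, fatty acid genes 64.7%, genes around MET 61.5% and class I genes 58.8%, while the squamous list, at 6.67% in each direction, lies below both dashed lines.

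The calls were not spread evenly over the chromosomes. On chromosome 18, 103 of 375 tested genes were higher in EBC1 than in every line (27.5%), with CDH2 and LAMA3 among them, and on chromosomes 11, 15 and 12 the shares were 20.1%, 18.6% and 17.0%. Lower calls took 20.4% of chromosome 22, 17.2% of chromosome 2 and 17.1% of chromosome 19. In windows of 5 Mb with at least 20 genes tested, the highest share was in the window that holds MET and CAV1, with 14 of 20 genes higher (70%). Other windows above 50% were on chromosome 11 at 55 to 60 Mb (25 of 39) and 60 to 65 Mb (85 of 153) and on chromosome 7 at 110 to 115 Mb (11 of 20). The window with the largest share of lower genes was on chromosome 2 at 120 to 125 Mb (10 of 21). Windows are a description, and the copy number of these regions was not measured.

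**Figure D4:**
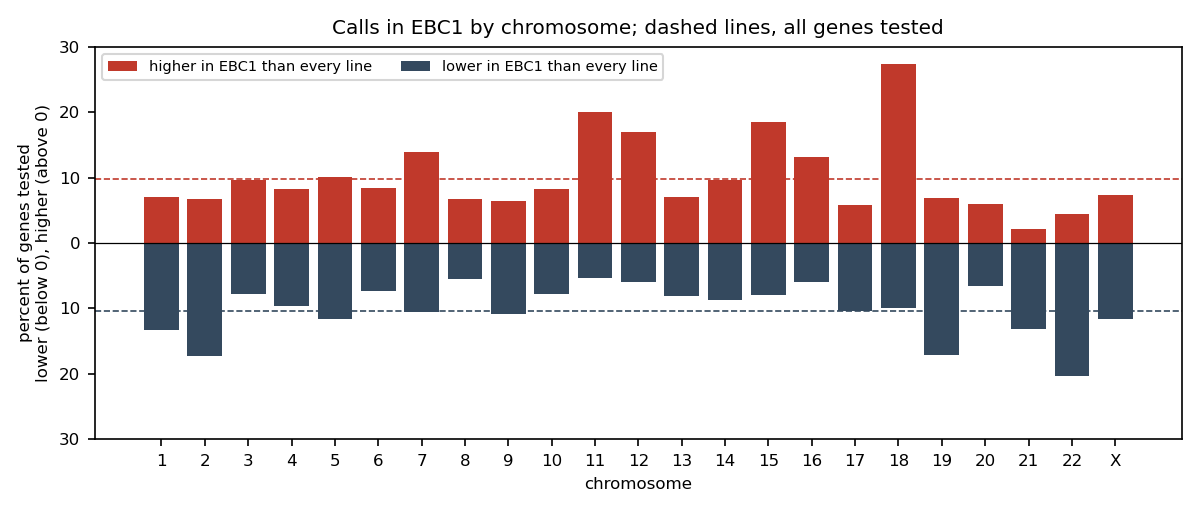
Percent of tested genes on each chromosome that were higher (above 0, red) or lower (below 0, dark) in EBC1 than in every adenocarcinoma line; dashed lines mark 9.86% and 10.4% over all genes tested. Chromosome 18 reaches 27.5% higher and chromosome 22 reaches 20.4% lower.

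An interaction term asked whether the difference between PD-L1s and untreated spheres was another in EBC1 than in H23, H820 and H1975. EBC1 has a single pair, so only the pairs of those lines inform the error. At an adjusted p under 0.05, edgeR called 3 of 24185 genes (0.0124%), and 1093 had an unadjusted p under 0.05. The 3 were copies or neighbours of the small nucleolar RNA U3 on chromosome 17 (SNORD3A, SNORD3C and the long intergenic RNA gene ENSG00000262202.4_4), which are near-identical and uncertain. None of the 5 marker genes was called.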

How the data were processed

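RNA-seq read counts of 8 libraries, 1 with PD-L1s and 1 untreated from each of EBC1, H23, H820 and H1975, were used. The authors deposited whole-number counts per gene, made per the file headers with featureCounts over exons of the GENCODE v28lift37 basic annotation, reverse-stranded, from primary alignments with both ends mapped, each pair counted for every gene it overlaps. STAR 2.7.3a, featureCounts of Subread 2.0.0 and the build GRCh37 are named in the submitters' processing notes. Pairs that overlap several genes on the same strand therefore enter more than 1 gene, and near-identical copies are uncertain.

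From the counts, 24185 of 60106 genes passed edgeR's expression filter. TMM-scaled CPM were computed, and edgeR 4.0.16 (R 4.3.3) fitted all 8 libraries with cell line and treatment as terms. The quasi-likelihood test compared EBC1 with the mean of the 3 adenocarcinoma lines and with each line, with Benjamini-Hochberg adjustment over all genes tested. The biological coefficient of variation was 12.9%. A gene was called when its adjusted p was under 0.05, and called against every line when this held against each in 1 direction. Named genes were the 5 markers, the 15 protein-coding genes in each direction called against every line with the widest gap in log2(CPM + 1) between the nearest EBC1 and adenocarcinoma libraries, 5 genes of other types in each direction, and up to 6 members a list, those called first. Further list members, neighbours of named genes and lineage markers were chosen after their values were seen, and not every gene under the rule is printed. The fit was tested on simulated data.

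Members and lists were chosen with earlier results of these data known. Alternatives were RLE factors, scaling by total count alone, other count filters, DESeq2 1.42.0, limma-voom (limma 3.58.1), no treatment term, protein-coding genes alone, thinned deep libraries, a 2-fold minimum and leaving out each library. Rules for runs of near-silent genes were chosen after seeing the data. CD24 and PECAM1 are not analysed here. The replicate number of a library is its treatment, and the cell line term pairs the libraries of a line. Floors and counts cover counting error only, since reads had no molecular identifiers.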

Additional observations from a re-analysis of the deposited data

Results flagged for a closer look

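The difference between PD-L1s and untreated libraries was itself different in EBC1 for 3 noncoding genes, by the interaction test of edgeR's quasi-likelihood fit. EBC1 has a single pair of libraries, so only the pairs of the adenocarcinoma lines inform the error. ENSG00000262202.4_4 (GRCh37 chr17:19015313-19015949), a long intergenic RNA gene, had 334 CPM with PD-L1s and 1.92 CPM untreated in EBC1, against 272 and 357 CPM in H1975, 0.790 and 0.508 in H820 and 0.101 and 0.120 in H23, an interaction of log2 7.74 ± 0.409 (SE, adjusted p = 3.26e-05). SNORD3C, a copy of the small nucleolar RNA U3, had 332 CPM with PD-L1s and 1.92 untreated in EBC1, an interaction of log2 7.43 ± 0.699 (adjusted p = 0.00595). Another copy, SNORD3A, went the opposite way, with 31.6 CPM with PD-L1s and 275 untreated in EBC1, an interaction of log2 -3.22 ± 0.342 (adjusted p = 0.0132). The copies are near-identical, so how reads divide between them is uncertain, and the part of this in the differences was not tested.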

How the results depend on the processing

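For genes called against every line, the main counts were 2384 higher and 2516 lower. Leaving out 1 library gave 1555 to 2641 higher and 1596 to 2676 lower, in both cases lowest without EBC1 replicate 2, the PD-L1s library. Scaling by total count alone gave 1478 higher and 3677 lower, DESeq2 1954 and 2280, and a minimum of 2-fold against each line 1140 and 1724. Thinning the deep EBC1 and H820 libraries gave 2165 and 2197. Among named genes, SLC34A2, CTNNA1, EDNRA, DDR2, ATM and WNT5A lost their call without EBC1 replicate 2, and CLDN3 and CDH15 without H820 replicate 2. Against the mean, leaving out 1 library gave 4647 to 7377 higher and 4044 to 6906 lower. No gene called against every line was called in the opposite direction against every line in any setting. Changes of sign alone, or calls reversed against fewer lines, were not counted, so this says little about smaller reversals. The interaction gave 3 genes, 6 with scaling by total count alone and 16 without a count filter. With windows of 10 Mb, 2 windows instead of 4 had over 50% of genes higher. SEMA4D (log2 0.31 ± 0.1253 with TMM) had log2 -0.0099 with scaling by total count alone, and the cause was not tested. No fit with a further replicate block was possible because the replicate number is the treatment; the fit without the treatment term called 2464 genes higher than every line. The untreated EBC1 library limits detection of low genes, at 5894946 counts.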
